A study of Homo sapiens with 7 samples.

Results

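The tumour suppressor p53 is a transcription factor that cells switch on after DNA damage and other stress. Its target genes halt the cell cycle, repair DNA, adjust metabolism and redox balance, or start apoptosis, and a few of them, above all MDM2, feed back to restrain p53 itself. This account covers 31 of these target genes in HK-2 cells, taken from the 33694 genes of the deposited count table by gene symbol and set out by what each is known to do. All 31 symbols were found once, 29 genes had enough counts to be tested, and EDA2R and SPATA18 had 0 counts in every library.

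HK-2 cells descend from the proximal tubule of a human kidney and were immortalised for culture. As background, this was done with the E6 and E7 genes of a human papillomavirus, and E6 uses the cellular ubiquitin ligase UBE3A to mark p53 protein for breakdown. The siGLUT2 group (genotype label GLUT2-KD) received 50 nM of an siRNA against GLUT2, a membrane carrier for glucose whose gene is SLC2A2, and has 3 libraries, replicates 2 to 4. The scrambled group (genotype label WT) received 50 nM of an siRNA of scrambled sequence and has 4 libraries, replicates 1 to 4. Both groups are the same cell line, grown in DMEM/F12 with FBS, ITS and glutamine, transfected with the same reagent and lysed after 96 h. The sources used here give no siRNA sequences, and the whole comparison rests on a single line, so the p-values measure the spread between transfections of that line.

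Total counts ranged from 5881366 to 6914302 in the siGLUT2 libraries and from 5654957 to 8455963 in the scrambled libraries. Genes with at least 1 count numbered 13433 to 13891 in siGLUT2 and 14844 to 15036 in scrambled libraries, and mitochondrially encoded genes took 7.04% to 7.56% and 4.91% to 5.53% of counts, so both measures separated the groups; their part in the results below was not tested. SLC2A2 was counted 0, 0 and 0 times in the siGLUT2 libraries, against 13, 13, 7 and 17 times in the scrambled libraries. With 3 counts over the group as the floor, that is at least 11-fold lower in siGLUT2, a bound that covers only the counting error of independent reads. SLC2A2 passed the low-count filter through its scrambled counts alone, so its edgeR adjusted p of 0.0085 is not separate support for the fall. Of 16 markers of proximal tubule and renal epithelium, 9 averaged at least 1 CPM (counts scaled to the library total). LRP2 was at 0 and the brush border markers CUBN, AQP1, SLC34A1, ANPEP and ALPL were near 0. GGT1, another brush border enzyme, was detected, and so were general renal epithelial genes such as PAX8, CDH6 and KRT18. By edgeR, 9 markers of this list were tested, and 1 was higher in siGLUT2, GGT1 (0.57 ± 0.15, adjusted p = 0.0074). Another 4 were lower: CDH6 (-0.62, adjusted p = 1.63e-05), KRT8 (-0.71, 0.000217), KRT18 (-0.76, 5.33e-07) and KRT19 (-0.97, 3.83e-06). These are 11.1% and 44.4%, beside 13.9% and 14.4% of all tested genes. The summed level of that list was 1368 to 1563 CPM in siGLUT2 and 1917 to 2023 CPM in scrambled libraries. Markers of other nephron segments summed to at most 0.865 CPM in siGLUT2 and 1.08 CPM in scrambled libraries, and of 5 endothelial markers 4 were at 0. The 6 fibroblast and pericyte markers summed to 15.1 to 21.4 CPM in siGLUT2 and 8.97 to 13.2 CPM in scrambled libraries, with COL3A1 at 0. Most of that sum was COL1A1, which averaged 16.6 CPM in siGLUT2 and 9.40 CPM in scrambled libraries (edgeR 0.82 ± 0.27, adjusted p = 0.026). PDGFRB had a negative fold change and did not pass (edgeR -0.44 ± 0.90, adjusted p = 0.765). COL1A2, DCN and PDGFRA had at most 1 count in any library. The 6 leukocyte markers summed to 25.9 to 28.5 CPM in siGLUT2 and 13.8 to 18.6 CPM in scrambled libraries, with PTPRC, CD3E and LYZ at 0. The part of these lists in the results below was not tested.

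Levels are given as CPM scaled by TMM, in the order of replicates 2, 3 and 4 for siGLUT2 and 1, 2, 3 and 4 for scrambled. Each fold change is the log2 of siGLUT2 over scrambled, with its SE. Each adjusted p comes from the quasi-likelihood test of edgeR with Benjamini-Hochberg adjustment over the 12404 tested genes, and a gene was called below 0.05. Counts in bulk RNA cannot tell fewer cells of a kind from less RNA per cell.

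The p53 targets moved in both directions. Of the 31 genes, 7 were called higher in siGLUT2 (MDM2, CCNG1, CDKN1A, GADD45A, BTG2, TNFRSF10B and TRIAP1) and 5 were called lower (PLK2, SFN, XPC, RRM2B and RPS27L), while 17 were tested and did not pass. Over all tested genes, 13.9% were called higher, 14.4% lower and 28.3% in either direction, beside 24.1%, 17.2% and 41.4% of the 29 tested p53 targets. For 13 of the 29 genes the siGLUT2 and scrambled CPM ranges were separate, as they were for 35.1% of all tested genes. The median log2 fold change of the 29 genes was 0.22, with a range of -1.63 to 1.47, and that of all tested genes was -0.0029. The median of the 29 depended on the libraries used. It ran from 0.062 (without siGLUT2 replicate 3) to 0.29 (without scrambled replicate 3), and was 0.073 with a replicate block in the fit. The called changes were mostly moderate: BTG2 rose by more than 2-fold, and SFN and RRM2B fell by more than 2-fold.

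**Figure D1:**
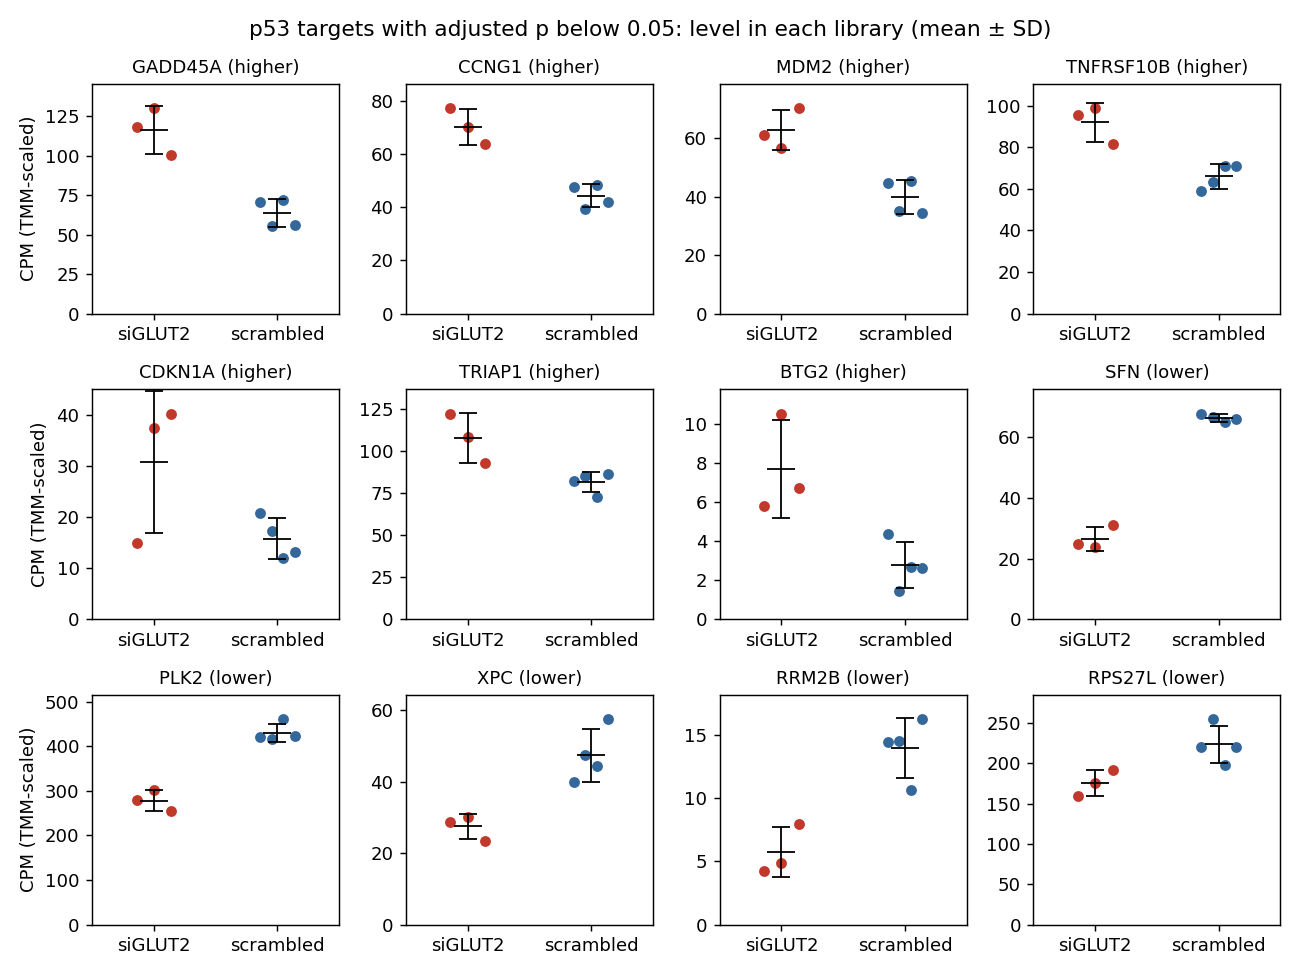
Level of each of the 12 p53 targets past the threshold, in CPM scaled by TMM (linear axes from 0), with 1 point per library (3 siGLUT2, 4 scrambled) and the mean ± SD as a bar. The groups do not overlap in 11 panels; in CDKN1A, siGLUT2 replicate 2 at 14.8 CPM sits inside the scrambled range of 11.9 to 20.7 CPM.

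The promoters that carry a p53 recognition half-site are shown first, because p53 binds DNA through pairs of such half-sites. RefSeq promoter sequences (GRCh38.p14, 250 bases before to 50 after the annotated start) were matched for 25 of the 31 genes, and the 10-base p53 half-site consensus, which reads the same on both strands, was found in 4 of them. The same search found it in 6.54% of all 27305 RefSeq promoters. Each line below gives the half-site in capitals with 5 bases on either side, 5′ to 3′ along the gene.
PLK2: ggacaAGACTTGCTTcccgg
FDXR: ggagcGGGCTTGCCCtgcgg
AEN: gagccGGGCTTGCCCgggca
RPS27L: agagcAGACAAGCCCgcccc
The PLK2 window is chr5:58460204-58460223 on the minus strand, with the half-site starting 132 bases before the annotated start. That of FDXR is chr17:74872991-74873010 on the minus strand, that of AEN chr15:88621301-88621320 on the plus strand, and that of RPS27L chr15:63157522-63157541 on the minus strand. In AEN the half-site was followed directly by a second with 2 mismatches, GGGCTTGCCCGGGCATGTGG, and a paired site of this kind (spacer up to 3 bases, up to 2 mismatches in all) stood in 1% of all promoters. PLK2 and RPS27L fell in siGLUT2 and FDXR and AEN did not pass. A match is letters only, and the sites of CDKN1A and MDM2 that are best known lie outside this window.

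Among the genes that feed back on p53, MDM2 and CCNG1 rose and MDM4 and PPM1D did not pass. MDM2 (ENSG00000135679, GRCh38 chromosome 12, 68808176 to 68850686, plus strand) encodes the ubiquitin ligase that binds p53 and sends it to the proteasome. Its level was 61.2, 56.8 and 70.2 CPM in siGLUT2, against 44.6, 35.0, 45.3 and 34.4 CPM in scrambled libraries. Every siGLUT2 library lay above every scrambled one, a 1.57-fold rise (0.65 ± 0.16, adjusted p = 0.00286). The carboxypeptidase M gene lies on the opposite strand at the 3′ end of MDM2, and with the strand setting unknown their reads cannot be told apart there; that gene fell (-0.61 ± 0.09, adjusted p = 1.26e-05). CCNG1, cyclin G1, which recruits a phosphatase to MDM2, was at 77.1, 69.9 and 63.6 CPM in siGLUT2, against 47.5, 39.3, 48.3 and 41.8 CPM in scrambled libraries. The groups again did not overlap, and the rise was 1.59-fold (0.67 ± 0.14, adjusted p = 0.00117). MDM4, the MDM2 relative that blocks the activation domain of p53, stood at 46.0, 39.5 and 33.0 CPM in siGLUT2, against 41.9, 39.1, 37.3 and 36.7 CPM in scrambled libraries (0.03, 95% interval -0.32 to 0.37, adjusted p = 0.928). PPM1D, the phosphatase WIP1 that removes damage-induced phosphates from p53 and its kinases, had 19.4, 12.4 and 6.57 CPM in siGLUT2, against 17.9, 15.5, 17.5 and 13.6 CPM in scrambled libraries. Its siGLUT2 libraries spanned a wider range than the scrambled ones on both sides, and the test did not pass (-0.34, 95% interval -0.97 to 0.29, adjusted p = 0.446).

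UBE3A, the ligase that E6 recruits, did not pass. UBE3A had 128, 122 and 116 CPM in siGLUT2, against 132, 139, 131 and 145 CPM in scrambled libraries, with groups that did not overlap (-0.17, 95% interval -0.38 to 0.04, adjusted p = 0.238). TP63 was at 0 in every library and TP73 averaged 0 CPM in siGLUT2 and 0.190 CPM in scrambled libraries, so these relatives of p53 were too low to test. Protein levels were not measured.

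Of the 8 targets linked to cell cycle arrest, 3 rose, 2 fell and 3 did not pass. That is 37.5% higher and 25% lower, beside 13.9% and 14.4% of all tested genes. GADD45A, a stress sensor that binds PCNA and the mitotic kinase CDK1, was at 119, 130 and 100.4 CPM in siGLUT2, against 71.1, 55.3, 72.2 and 56.4 CPM in scrambled libraries. Its lowest siGLUT2 library exceeded its highest scrambled one, a rise of 1.82-fold (0.87 ± 0.13, adjusted p = 3.42e-05). CDKN1A encodes p21, the inhibitor of cyclin-dependent kinases through which p53 stops cells in G1. It stood at 14.8, 37.3 and 40.2 CPM in siGLUT2, against 20.7, 17.3, 11.9 and 13.1 CPM in scrambled libraries. The siGLUT2 libraries differed: replicates 3 and 4 were above every scrambled library and replicate 2 was among them. The fit gave a rise of 1.96-fold (0.97 ± 0.28, adjusted p = 0.012), which missed the threshold without siGLUT2 replicate 3 (0.0812), siGLUT2 replicate 4 (0.0696) or scrambled replicate 3 (0.0515). BTG2, an antiproliferative protein that promotes mRNA deadenylation, was low throughout, with 34, 73 and 43 counts in siGLUT2, against 31, 12, 21 and 15 counts in scrambled libraries. In CPM this was 5.80, 10.5 and 6.72 in siGLUT2, against 4.34, 1.44, 2.66 and 2.65 in scrambled libraries. It rose 2.78-fold (1.47 ± 0.48, adjusted p = 0.0232), and the call was lost without siGLUT2 replicate 3 (adjusted p = 0.135) or without scrambled replicate 2, 3 or 4 (0.0731, 0.0521 and 0.0548).

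SFN and PLK2 had the smallest adjusted p of all 31 genes and went down. SFN encodes stratifin, an epithelial protein that holds mitotic cyclin complexes in the cytoplasm. Its level was 24.7, 23.9 and 31.1 CPM in siGLUT2, against 67.8, 66.8, 65.0 and 65.96 CPM in scrambled libraries. The 4 scrambled values lay within 3 CPM of each other and each was more than 2 times any siGLUT2 value (-1.32 ± 0.16, adjusted p = 1.24e-06). PLK2, a kinase of the polo family that acts at centrioles and in the S phase checkpoint, had 279, 302 and 254 CPM in siGLUT2, against 420.0, 416, 460.4 and 422 CPM in scrambled libraries. The groups were well apart (-0.63 ± 0.09, adjusted p = 9.4e-06). Its relative PLK3, which responds to DNA damage, was at 6.65, 9.65 and 4.69 CPM in siGLUT2, against 7.85, 3.84, 6.58 and 3.35 CPM in scrambled libraries (0.37, 95% interval -0.51 to 1.25, adjusted p = 0.562). GADD45B, a relative of GADD45A, averaged 39.9 ± 9.48 CPM in siGLUT2 and 48.4 ± 8.46 CPM in scrambled libraries (SD, n = 3 and 4; edgeR adjusted p = 0.284), and ZMAT3, an RNA-binding protein that regulates splicing and mRNA stability, averaged 29.9 ± 7.86 CPM in siGLUT2 and 28.9 ± 2.44 CPM in scrambled libraries (edgeR adjusted p = 0.886).

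All 4 targets that act in DNA repair and nucleotide supply had negative fold changes, as did 6221 of the 12404 tested genes. XPC and RRM2B were called lower (50% of the 4, beside 14.4% of all tested genes), and the intervals of DDB2 and POLH included 0. By edgeR 0 of these 4 targets were higher, also at an unadjusted p below 0.05 and by DESeq2 and limma-voom. XPC, the damage sensor that starts global genome nucleotide excision repair, was at 28.8, 30.3 and 23.5 CPM in siGLUT2, against 39.9, 47.5, 44.5 and 57.5 CPM in scrambled libraries. Each siGLUT2 library was below each scrambled library (-0.78 ± 0.18, adjusted p = 0.00187). RRM2B, the p53-inducible small subunit of ribonucleotide reductase that supplies nucleotides outside S phase, had 4.26, 4.90 and 7.97 CPM in siGLUT2, against 14.4, 14.5, 10.6 and 16.2 CPM in scrambled libraries. It was 2.43-fold lower without overlap (-1.28 ± 0.33, adjusted p = 0.00474). DDB2, which recognises ultraviolet damage upstream of XPC, averaged 15.3 ± 1.86 CPM in siGLUT2 and 17.8 ± 4.29 CPM in scrambled libraries (-0.22, 95% interval -0.74 to 0.30, edgeR adjusted p = 0.565). POLH, the translesion polymerase that copies past such damage, averaged 6.16 ± 1.46 CPM in siGLUT2 and 8.37 ± 2.75 CPM in scrambled libraries (-0.45, 95% interval -1.23 to 0.33, edgeR adjusted p = 0.404). The gene GTPBP2 overlaps the 3′ end of POLH on the other strand and rose (1.45 ± 0.34, adjusted p = 0.0025), so reads shared with it would bear on the POLH value.

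None of the 4 metabolic and redox targets passed in edgeR, DESeq2 or limma-voom, although at an unadjusted p below 0.05 edgeR had 1 higher and 1 lower. Over all tested genes, edgeR called 28.3% in either direction. SESN1, a sestrin that restrains mTORC1 and supports peroxide reduction, was at 8.36, 12.0 and 5.63 CPM in siGLUT2, against 4.77, 3.72, 5.82 and 1.59 CPM in scrambled libraries. Replicate 4 of siGLUT2 was just below the highest scrambled library (1.11 ± 0.44, adjusted p = 0.0659). The edgeR adjusted p was 0.026 without siGLUT2 replicate 4 and 0.279 without siGLUT2 replicate 3. FDXR, ferredoxin reductase of the mitochondrial electron chain for iron-sulphur cluster and steroid synthesis, was at 6.65, 7.06 and 14.9 CPM in siGLUT2, against 13.9, 19.5, 14.4 and 12.7 CPM in scrambled libraries. Here replicate 4 stood apart from the other siGLUT2 libraries and lay among the scrambled ones (-0.67 ± 0.31, adjusted p = 0.117). The edgeR adjusted p was 0.00804 without siGLUT2 replicate 4 and 0.318 without siGLUT2 replicate 3. TP53I3, a quinone oxidoreductase, was at 13.1, 10.8 and 9.54 CPM in siGLUT2, against 9.53, 9.11, 6.58 and 7.58 CPM in scrambled libraries. Those groups did not overlap, by a narrow margin, and the test did not pass (0.44, 95% interval -0.20 to 1.08, adjusted p = 0.308). TP53INP1, a stress protein that acts in autophagy and on p53 phosphorylation, had 13.1, 13.3 and 22.0 CPM in siGLUT2, against 11.1, 12.4, 11.6 and 13.1 CPM in scrambled libraries (0.43, 95% interval -0.13 to 0.98, adjusted p = 0.254). Its lowest siGLUT2 library barely exceeded its highest scrambled one.

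Among the death receptors TNFRSF10B rose, and the others did not pass or were not detected. TNFRSF10B encodes DR5, a receptor for the death ligand TRAIL. Its level was 95.7, 98.7 and 81.3 CPM in siGLUT2, against 58.7, 63.2, 70.8 and 71.1 CPM in scrambled libraries. The lowest siGLUT2 library was above all scrambled libraries, a rise of 1.39-fold (0.48 ± 0.13, adjusted p = 0.00643). RHOBTB2 overlaps the 3′ end of TNFRSF10B on the other strand and did not pass (-0.28 ± 0.29, edgeR adjusted p = 0.514). TNFRSF10C, a decoy receptor for TRAIL, had only 9, 1 and 2 counts in siGLUT2, against 8, 17, 23 and 12 counts in scrambled libraries (adjusted p = 0.225), and its interval of -3.65 to 0.38 leaves even a large change undetectable at this depth. FAS, the receptor of FAS ligand, averaged 9.22 ± 1.503 CPM in siGLUT2 and 7.92 ± 2.66 CPM in scrambled libraries (SD, n = 3 and 4; edgeR adjusted p = 0.684). EDA2R, the ectodysplasin A2 receptor, had 0 counts in both groups, which allows up to 0.156 CPM in siGLUT2 and 0.103 CPM in scrambled libraries (3 counts over the group). The TRAIL receptors TNFRSF10A (DR4) and TNFRSF10D (a decoy), from the list of further targets below, were both more than 2-fold higher. TNFRSF10A was at 73.2, 68.9 and 71.3 CPM in siGLUT2, against 30.1, 36.1, 23.9 and 26.5 CPM in scrambled libraries (1.28 ± 0.16, adjusted p = 2.63e-06). TNFRSF10D was at 76.9, 90.9 and 84.4 CPM in siGLUT2, against 33.4, 34.8, 40.7 and 40.4 CPM in scrambled libraries (1.17 ± 0.14, adjusted p = 1.56e-06). These receptors are paralogues, and reads in stretches they share cannot be assigned with certainty.

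Of the 7 targets linked to apoptosis, survival or mitochondria, 6 were tested, 1 rose and 1 fell. That is 16.7% each, beside 13.9% higher and 14.4% lower over all tested genes. TRIAP1, a small mitochondrial protein that supports lipid transfer and cell survival, was at 122, 108 and 92.6 CPM in siGLUT2, against 81.8, 85.0, 72.6 and 86.2 CPM in scrambled libraries. The groups did not overlap, and the 1.32-fold rise (0.40 ± 0.12, adjusted p = 0.0161) missed the threshold without siGLUT2 replicate 2 (0.0686) or scrambled replicate 3 (0.0568). RPS27L, a ribosomal protein paralogue that affects p53 stability, had 159.97, 175 and 191 CPM in siGLUT2, against 220, 254, 198 and 221 CPM in scrambled libraries. It fell without overlap (-0.35 ± 0.10, adjusted p = 0.0127), and without scrambled replicate 2 the fold change was -0.28 and missed the threshold (adjusted p = 0.0632). Reads shared with RPS27 or its copies make the value uncertain. LACTB also overlaps the 3′ end of RPS27L on the other strand and did not pass (0.45 ± 0.20, edgeR adjusted p = 0.0967). PHLDA3, a pleckstrin homology protein that blocks AKT at the membrane, had 34.8, 58.1 and 81.5 CPM in siGLUT2, against 35.3, 47.0, 38.5 and 42.5 CPM in scrambled libraries. Replicate 2 of siGLUT2 was below all scrambled libraries while replicates 3 and 4 were above them (0.51 ± 0.20, adjusted p = 0.0663). The edgeR adjusted p was 0.000666 without siGLUT2 replicate 2, but 0.508 without siGLUT2 replicate 4, where the fold change was 0.19. PERP, a desmosomal membrane protein, had 26.6, 4.47 and 10.6 CPM in siGLUT2, against 10.8, 18.6, 17.7 and 17.1 CPM in scrambled libraries. The siGLUT2 libraries lay on both sides of the scrambled range, so no direction can be given (adjusted p = 0.726, and 0.0188 for a fall without siGLUT2 replicate 2). CYFIP2, a subunit of the WAVE actin regulator, had 9.04, 24.4 and 9.38 CPM in siGLUT2, against 11.2, 9.23, 11.9 and 9.88 CPM in scrambled libraries, where replicate 3 alone was high (adjusted p = 0.347). ADAM19 overlaps the 3′ end of CYFIP2 on the other strand and rose (1.86 ± 0.18, adjusted p = 7.89e-08). AEN, an apoptosis-linked nuclease, averaged 32.9 ± 5.63 CPM in siGLUT2 and 27.9 ± 4.57 CPM in scrambled libraries (edgeR adjusted p = 0.394), and SPATA18, a mitochondrial quality control protein, had 0 counts in both groups.

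**Figure D2:**
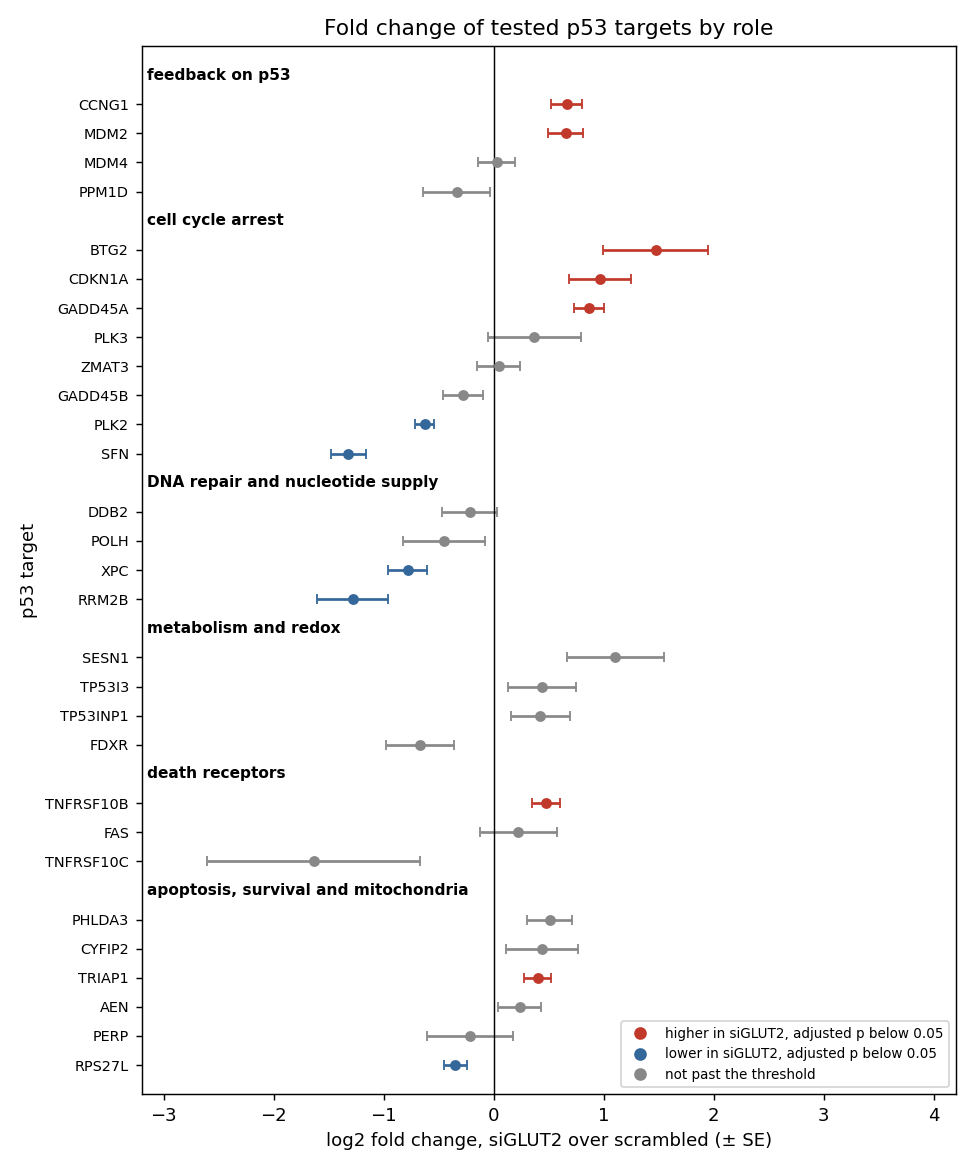
Log2 fold change, siGLUT2 over scrambled, of the 29 tested p53 targets, with bars of ± SE, set out by role from top to bottom (red higher and blue lower at an adjusted p below 0.05, grey not past the threshold). The repair genes all lie left of 0, from -0.22 to -1.28, while the arrest genes run from -1.32 to 1.47.

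The siGLUT2 libraries differed from each other for many of these genes. The highest siGLUT2 level was more than 2 times the lowest in 9 of the 29 genes (PPM1D, CDKN1A, PLK3, SESN1, FDXR, TNFRSF10C, PHLDA3, PERP and CYFIP2), against 6 of 29 in scrambled libraries. The median coefficient of variation of the p53 targets was 23.6% in siGLUT2 and 15.7% in scrambled libraries. Over the 11728 tested genes within the same range of mean CPM it was 20.7% in siGLUT2 and 14.5% in scrambled libraries, so a wider spread in siGLUT2 was common to both. The p53 targets did not share 1 order across the siGLUT2 libraries. CDKN1A and PHLDA3 were lowest in replicate 2, where PERP and PPM1D were highest, and CYFIP2, BTG2 and SESN1 peaked in replicate 3. Replicate 4 was the lowest of the siGLUT2 libraries for 16 of the 29 genes, replicate 2 for 9 and replicate 3 for 4, against 35.1%, 35.5% and 29.4% of all tested genes.

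**Figure D3:**
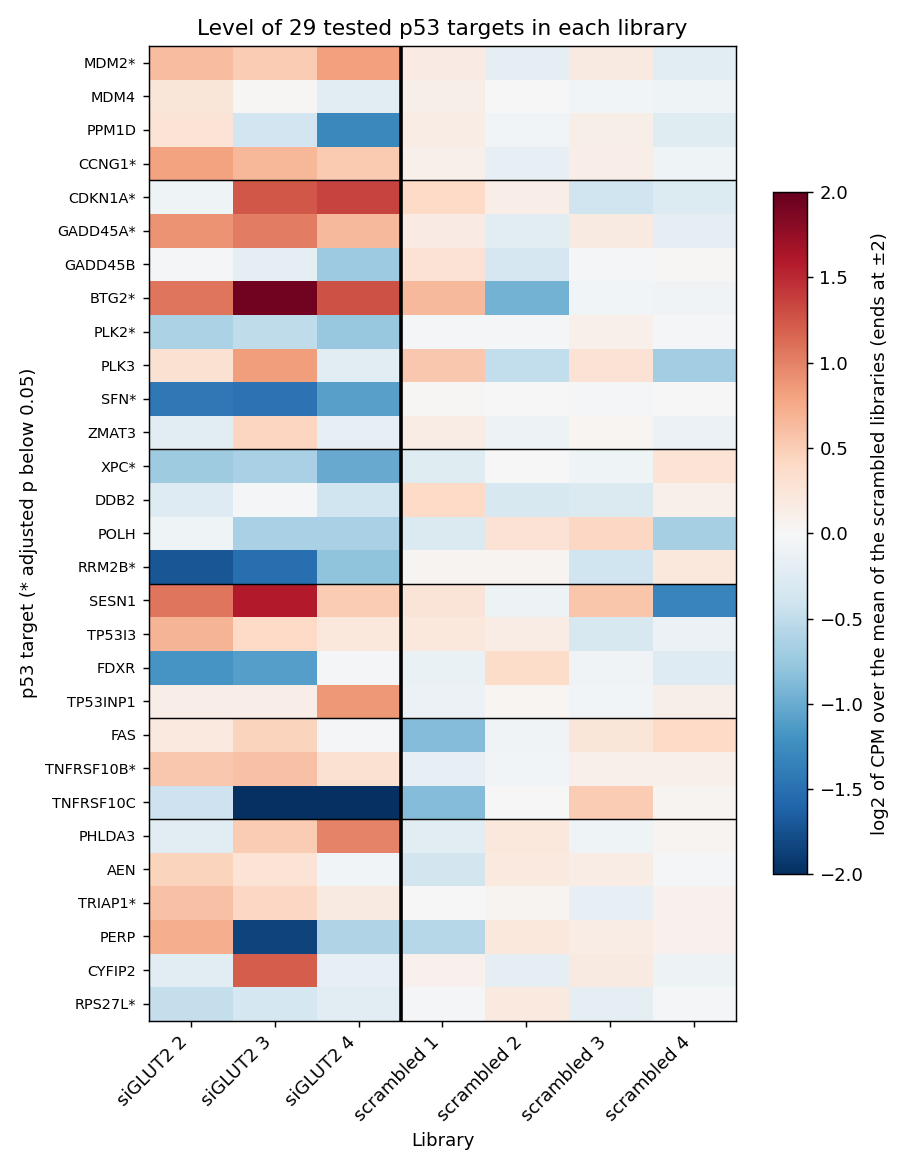
Log2 of the CPM of each of the 29 tested p53 targets over its mean in the scrambled libraries, for the 3 siGLUT2 libraries (left of the line) and the 4 scrambled libraries, with colours ending at ±2 and roles parted by thin lines. MDM2, CCNG1, GADD45A and BTG2 are red and SFN, PLK2, XPC and RRM2B blue in all 3 siGLUT2 libraries, while CDKN1A, PHLDA3, PERP and CYFIP2 differ between those libraries.

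A broader set of 60 known p53 targets outside the 31 genes also held calls in both directions. Of 52 tested, 13 were higher and 7 lower (25% and 13.5%, beside 13.9% and 14.4% of all tested genes). Their median was 0.14, with a range of -1.75 (TGFA, edgeR adjusted p = 4.08e-05) to 1.73 (FUCA1). The 4 with the smallest adjusted p all rose. FUCA1, the lysosomal fucosidase, was at 63.1, 69.2 and 70.8 CPM in siGLUT2, against 22.4, 21.6, 18.8 and 18.5 CPM in scrambled libraries (1.73 ± 0.16, adjusted p = 3.92e-08). BLOC1S2, a subunit of complexes that position lysosomes, had 127, 114 and 92.7 CPM in siGLUT2, against 45.4, 49.5, 59.95 and 51.0 CPM in scrambled libraries (1.11 ± 0.14, adjusted p = 2.18e-06). TNFRSF10A and TNFRSF10D, given above, were the other two. Among the classic apoptosis effectors of that list PMAIP1 (NOXA) was higher (0.42 ± 0.14, adjusted p = 0.0259), whereas BAX (0.33 ± 0.20, adjusted p = 0.231) and BBC3 (PUMA, -0.03 ± 0.20, adjusted p = 0.925) did not pass and APAF1, the apoptosome scaffold, was lower (-0.68 ± 0.21, adjusted p = 0.0176). TIGAR, which lowers glycolytic flux, was higher (0.64 ± 0.23, adjusted p = 0.0384), and SESN2, the other stress-induced sestrin, did not pass (0.09 ± 0.11, adjusted p = 0.585). TGFA and these last 6 genes were named after their values were seen.

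Of 32 genes of the p53 family and its upstream regulators, 30 were tested, with a median of 0.10. Of those tested, 4 were higher and 4 lower (13.3% each, beside 13.9% and 14.4% of all tested genes). RCHY1, the ubiquitin ligase PIRH2 that targets p53, was at 23.7, 24.1 and 24.5 CPM in siGLUT2, against 7.57, 5.76, 6.32 and 7.58 CPM in scrambled libraries, a rise of 3.55-fold (1.83 ± 0.25, adjusted p = 9.83e-06). COP1, another ligase of p53, was at 64.6, 60.4 and 52.7 CPM in siGLUT2, against 43.7, 29.5, 37.4 and 42.0 CPM in scrambled libraries (0.64 ± 0.16, adjusted p = 0.00482). For both ligases the groups did not overlap, as for 11 of the 30 tested regulators and 35.1% of all tested genes in either direction. Both were named by their small adjusted p, and UBE3A, a ligase of the same list, did not pass (edgeR -0.17, adjusted p = 0.238). PRKDC, the catalytic subunit of the DNA-dependent protein kinase that signals double-strand breaks, was at 164, 139 and 156 CPM in siGLUT2, against 297, 284, 255 and 302 CPM in scrambled libraries (-0.90 ± 0.10, adjusted p = 3.85e-07). TP53RK, a kinase of the KEOPS complex that can phosphorylate p53, was at 31.2, 41.6 and 23.5 CPM in siGLUT2, against 12.9, 19.2, 21.4 and 16.8 CPM in scrambled libraries (0.87 ± 0.23, adjusted p = 0.00617, and 0.0722 without siGLUT2 replicate 3).

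p53 lowers cell cycle genes indirectly, through p21 and the repressor complex DREAM. Of 32 such genes, all tested, 20 were lower (62.5%, beside 14.4% of all tested genes) and 0 higher by edgeR, with 1 higher at an unadjusted p below 0.05 and 1 each by DESeq2 and limma-voom, and the median was -0.54. LMNB1, lamin B1 of the nuclear envelope, had 43.0, 35.0 and 21.4 CPM in siGLUT2, against 132, 146, 139.8 and 134 CPM in scrambled libraries (-2.06 ± 0.17, adjusted p = 5.5e-09). MYBL2, a transcription factor of the mitotic programme, had 199.9, 225 and 319 CPM in siGLUT2, against 591, 598, 558 and 557 CPM in scrambled libraries (-1.22 ± 0.12, adjusted p = 7.89e-08). The helicase subunit MCM5 changed by -1.27 ± 0.11 and the topoisomerase TOP2A by -0.73 ± 0.08. Whether these genes changed through p21 was not tested.

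**Figure D4:**
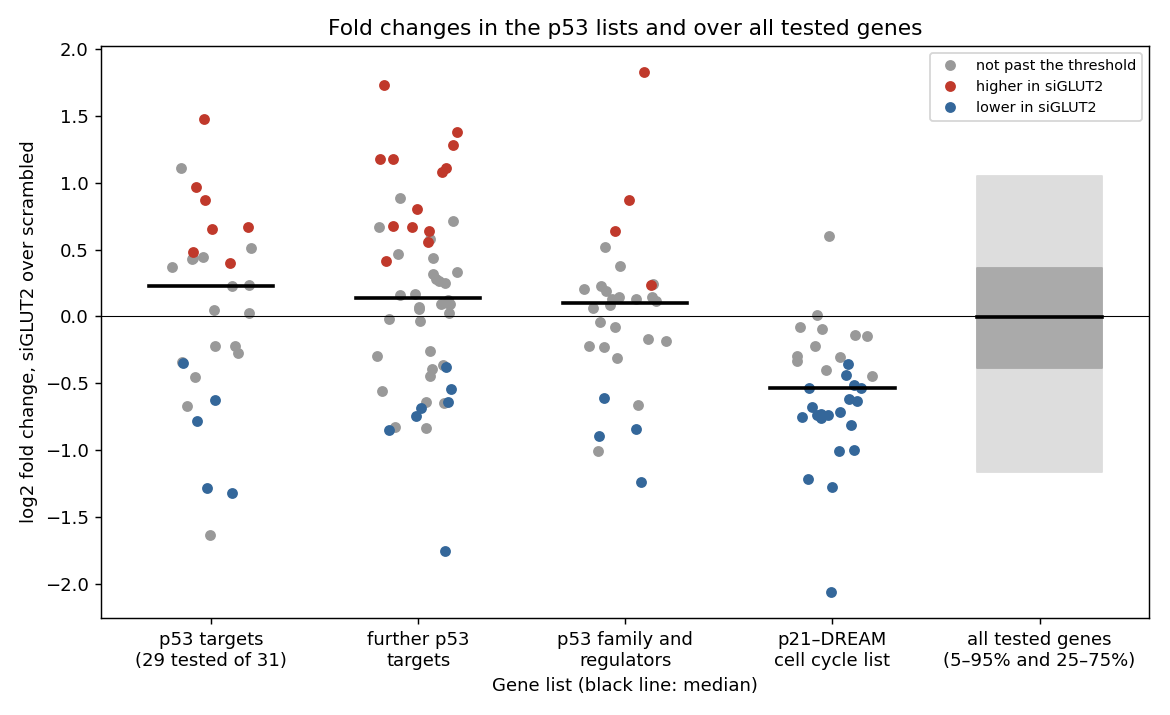
Log2 fold change, siGLUT2 over scrambled, of tested genes in the 4 p53 lists (1 point per gene, red higher and blue lower at an adjusted p below 0.05, black line the median), beside all 12404 tested genes (light band 5% to 95%, dark band 25% to 75%). Medians are 0.22 for the p53 targets, 0.14 for further targets, 0.10 for regulators and -0.54 for the cell cycle list, against -0.0029 over all tested genes.

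The 7-base words GACCTTA and ACCTTAA, which overlap by 6 bases, were picked in an earlier scan of these same fold changes, and their share is given as a description only. In the longest annotated 3′ UTR of each gene (GENCODE 29, transcript strand), either word stood in 5 of the 29 tested p53 targets: MDM2, BTG2, ZMAT3, RRM2B and PERP. Over all tested genes with such a UTR, 21.2% of 1789 genes with a word and 13.6% of 9831 without one were lower in siGLUT2. In the same order, 10.9% and 15.1% were higher. The sites of MDM2, BTG2, ZMAT3 and PERP are printed to show their context, with the word in capitals, 5′ to 3′ on the transcript strand.
MDM2: ctcgcctagtGACCTTAgagacaataa
BTG2: aaaccgaatcACCTTAAgaaggacagg
ZMAT3: aaacaaatttGACCTTAccaactattt
PERP: atcacacaatACCTTAAcggcgcacat
They lie on GRCh38 at chr12:68846813-68846839 (MDM2, plus strand), chr1:203308926-203308952 (BTG2, plus strand), chr3:179020509-179020535 (ZMAT3, minus strand) and chr6:138089875-138089901 (PERP, minus strand). Of the 5 genes, MDM2 and BTG2 rose, RRM2B fell, and ZMAT3 and PERP did not pass. The other called falls among the p53 targets, SFN, PLK2, XPC and RPS27L, held neither word in these UTRs.

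Of the 12 called p53 targets, 7 kept their direction and call under each of 17 other settings: MDM2, CCNG1, GADD45A, PLK2, SFN, XPC and RRM2B. CDKN1A, BTG2, TNFRSF10B, TRIAP1 and RPS27L lost their call in at least 1 setting.

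**Figure D5:**
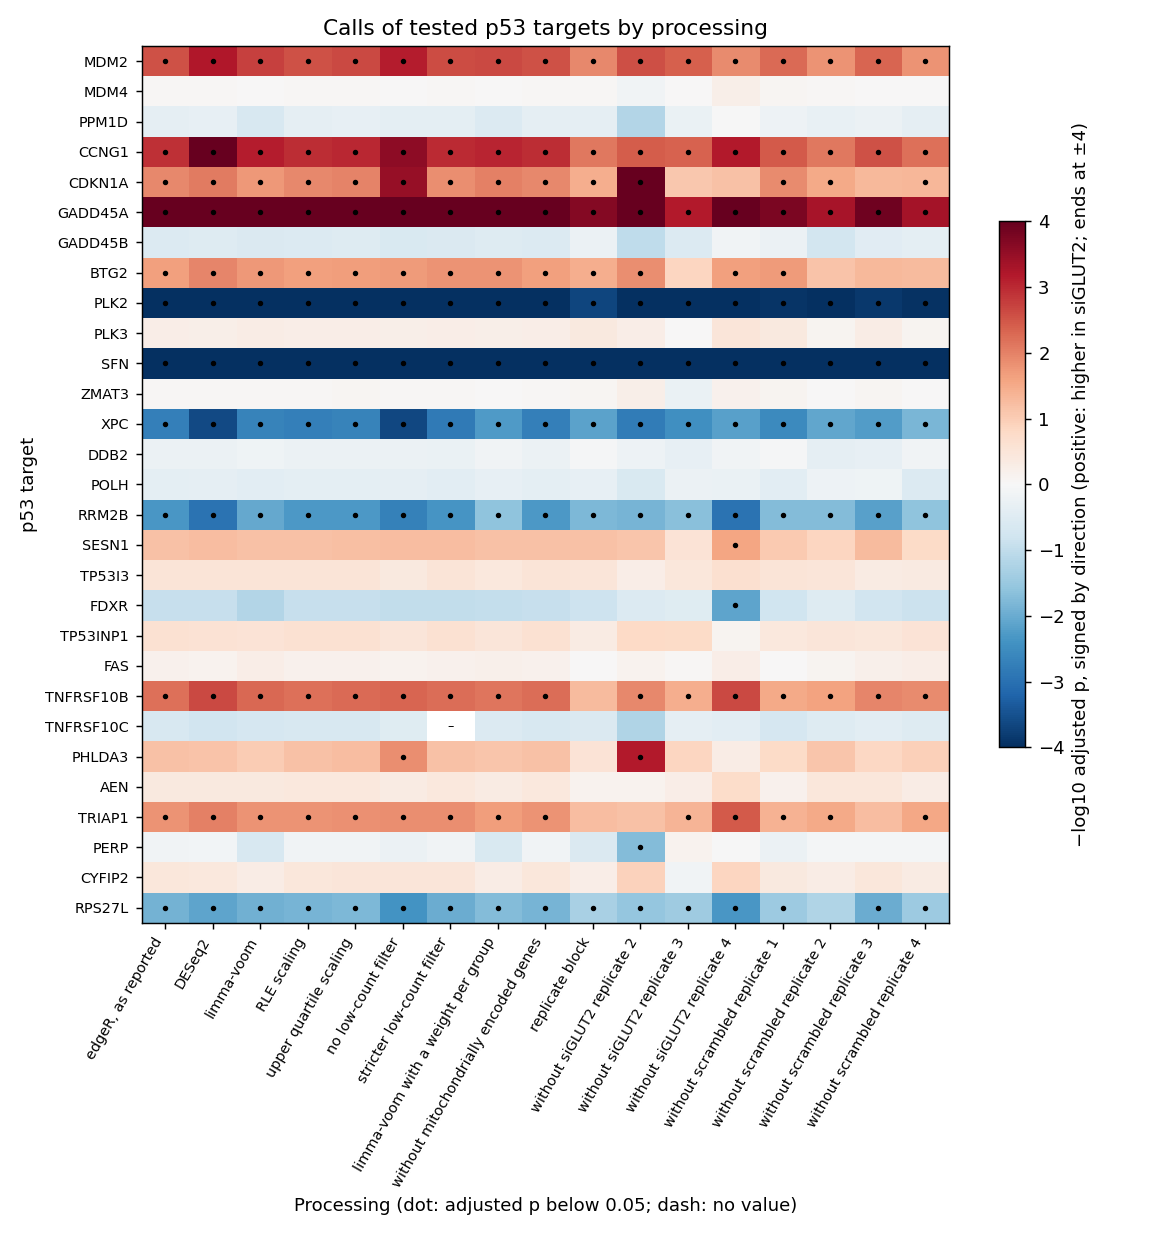
Calls of the 29 tested p53 targets (rows) under the reported edgeR fit and 16 alternatives (columns). Colour is −log10 adjusted p signed by direction, red for higher in siGLUT2 and ending at ±4, a dot marks an adjusted p below 0.05 and a dash no value. The rows of GADD45A, SFN and PLK2 hold a dot in every column, while CDKN1A, BTG2, TRIAP1 and RPS27L lose theirs when single libraries are left out.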

How the data were processed

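Total RNA (125 ng) of 7 HK-2 cultures went to a commercial digital mRNA-seq service, which read single ends over 100 cycles, per the labels' protocols. The authors deposited raw counts, whole numbers for each Ensembl gene. The submitters' processing notes name STAR, HTSeq, edgeR and hg38. The sources used here give no versions, annotation, strand setting or use of molecular identifiers. Floors cover counting error only.

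Groups came from the sample titles. All 7 value columns matched a sample and 0 were left out. From the counts, edgeR 4.0.16 in R 4.3.3 was run on 3 siGLUT2 and 4 scrambled libraries: filterByExpr (minimum count 10, minimum total 15), TMM, robust estimateDisp and glmQLFit, glmQLFTest without covariates, Benjamini-Hochberg adjustment, threshold 0.05. The SE is the fold change divided by the square root of the F statistic, and intervals are 95%. Alternatives used DESeq2 1.42.0, limma 3.58.1, other scalings and filters, a replicate block and each library left out. Scripts were tested on simulated data.

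The 31 genes and the lists were chosen with earlier results of these data known. Named are all 31, SLC2A2, UBE3A and, per list, the 4 tested genes with the smallest adjusted p; 1 further gene of the rule is not reported here. Libraries of a group differed by more than sampling noise (chi-square per degree of freedom 9.69 to 16.3 in siGLUT2 and 4.65 to 7.76 in scrambled pairs). Positions are from GENCODE 29 and promoters from RefSeq (GRCh38.p14).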

Additional observations from a re-analysis of the deposited data

Results flagged for a closer look

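PLK2 was at 460.4 CPM in scrambled replicate 3, set apart from the other scrambled libraries at 416 to 422 CPM. The gap was 0.858 of the range of the group, above the 95% critical value of Dixon's test for 4 samples. About 1 in 20 groups passes that value by chance, and 44 genes were checked. The fall of PLK2 was called without that library too.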

How the results depend on the processing

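The count of p53 targets called higher (7) was 4 at an adjusted p below 0.01 and 4 to 7 with single libraries left out, 4 without scrambled replicate 3. The count of those called lower (5) stayed within 4 to 6 with single libraries left out. Over all 12404 tested genes, 1723 were called higher and 1786 lower, and 1097 and 1167 at 0.01. With single libraries left out, 1384 to 1815 of all tested genes were higher and 1404 to 1963 lower. Without scrambled replicate 3, 1502 of 12216 tested genes were higher, beside 4 of 29 p53 targets. Further p53 targets called lower (7) were 4 at 0.01. Regulators called lower (4) were 1 at 0.01 and 1 to 4 with single libraries left out, 2 without scrambled replicate 2 and 1 without scrambled replicate 4. The cell cycle list had 0 called higher, but 1 with DESeq2, limma-voom, RLE scaling, upper quartile scaling, the stricter filter and without mitochondrially encoded genes, and 0 to 1 with single libraries left out. Directions turned for 4 p53 targets that were not called. With single libraries left out, MDM4 ranged from -0.10 (without siGLUT2 replicate 2) to 0.14, ZMAT3 from -0.19 to 0.16, PERP from -1.10 to 0.21 and CYFIP2 from -0.20 to 0.68. The turned values of ZMAT3 (-0.19), PERP (0.21) and CYFIP2 (-0.20) came without siGLUT2 replicate 3; the cause was not tested. Deviations from the group means hardly correlated between libraries of the same replicate number (0.0095, 0.015 and -0.0032 for numbers 2, 3 and 4). Replicates 2 and 3 of siGLUT2 correlated best with their own number and replicate 4 with scrambled replicate 2. Whether the numbers pair the libraries cannot be told from these values. With the replicate block 5 p53 targets were higher and 5 lower, beside 1242 and 1407 of all 12404 tested genes. In that fit TNFRSF10B (0.0528) and TRIAP1 (0.0582) lost their call, and SLC2A2 had an adjusted p of 0.0577. PHLDA3 was called higher without a low-count filter (adjusted p = 0.0138). The stricter filter and leaving out scrambled replicate 1, 2 or 4 removed SLC2A2 and gave no value. Depth limits the genes with few counts, BTG2, TNFRSF10C, SESN1 and PLK3 among them.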
